A study of Mus musculus with 4 samples.

Results

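The transcription factors Nrf2 and Nrf1, the Nrf2 inhibitor Keap1, the small Maf partners and the Bach repressors were followed in mouse fibroblasts after a pulse of hydrogen peroxide. The members were all non-control probes that the array files name *Nfe2l2*, *Nfe2l1*, *Keap1*, *Maff*, *Mafg*, *Mafk*, *Bach1* or *Bach2*. These were 12 probes of 8 genes, of 39429 probes with 30175 gene names on the array. *Mafg* had 4 probes, *Bach2* had 2, and each other gene had 1. Each probe was printed as 1 spot per array.

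Total RNA came from NIH-3T3:Per2-Luc cells, a mouse embryonic fibroblast line that carries luciferase under the promoter of the clock gene *Per2*. All cells carried this reporter. The control received 0 mM H2O2 (fresh medium, label 4 h), and the other cells received the critical oxidative stress (cOS) pulse of 5 mM H2O2 for 10 min and were taken 4 h, 20 h or 32 h later. Each condition had 1 one-color array and all 4 arrays were on 1 slide. Without replicates there is no statistical test, and the comparisons at 4 h, 20 h and 32 h share the single control array. That control is labelled 4 h, and there is no untreated array at 20 h or 32 h. In the later ratios, time since the medium change and the pulse therefore cannot be told apart.

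Nrf2 (*Nfe2l2*) and Nrf1 (*Nfe2l1*) are CNC-family transcription factors that bind antioxidant response elements (ARE) as partners of a small Maf protein (MafF, MafG or MafK). Keap1 holds Nrf2 in the cytoplasm for degradation, and oxidants that modify Keap1 release it, so Nrf2 is controlled largely as a protein. Bach1 and Bach2 pair with the same small Mafs on similar elements and repress genes such as *Hmox1*, the heme-degrading oxygenase. Only RNA was measured here, and in a bulk sample fewer cells of a type and less RNA per cell cannot be told apart.

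The promoters are shown because ARE-like letters stood upstream of several of these genes. RefSeq (GRCm38.p6) gave 14 windows for the 8 genes, from 250 bases before to 50 bases after each transcription start, 5 of them for *Nfe2l1* and 3 for *Maff*, some overlapping. The ARE core TGACNNNGC was searched on both strands, and it can overlap in its letters with the AP-1 site TGANTCA. It was found in 4 windows, those of *Nfe2l2* (240 to 232 bases before the start), *Maff* (112 to 104 bases), *Mafg* (222 to 214 bases) and *Mafk* (13 to 5 bases). Of all 32851 windows of the same length, 12.4% held it. The E-box CACGTG is an element that CLOCK:BMAL1 can bind. It was found for *Mafg* (41 to 36 bases), *Mafk* (208 to 203 bases) and another *Maff* window (191 to 186 bases), against 7.15% of all windows. The heat shock element core GAANNTTC and the AP-1 site were in none of the 14 windows, against 7.86% and 7.81% of all windows. These matches describe letters and are not evidence of binding. The 250 bases before the start of the 4 genes with an ARE core are given 5′ to 3′ on the strand of the gene, with ARE core and E-box letters in capitals.
Nfe2l2 (chr2:75704664-75704913, minus strand): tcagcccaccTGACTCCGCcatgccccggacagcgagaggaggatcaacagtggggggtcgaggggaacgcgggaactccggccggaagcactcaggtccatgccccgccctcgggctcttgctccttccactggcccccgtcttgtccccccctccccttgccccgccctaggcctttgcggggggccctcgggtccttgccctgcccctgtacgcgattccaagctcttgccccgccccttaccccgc
Maff (chr15:79346371-79346620, plus strand): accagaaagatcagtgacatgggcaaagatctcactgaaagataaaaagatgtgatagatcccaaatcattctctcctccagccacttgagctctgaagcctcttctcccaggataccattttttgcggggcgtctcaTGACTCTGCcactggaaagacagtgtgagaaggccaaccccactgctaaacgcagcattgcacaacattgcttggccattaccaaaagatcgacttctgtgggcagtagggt
Mafg (chr11:120633548-120633797, minus strand): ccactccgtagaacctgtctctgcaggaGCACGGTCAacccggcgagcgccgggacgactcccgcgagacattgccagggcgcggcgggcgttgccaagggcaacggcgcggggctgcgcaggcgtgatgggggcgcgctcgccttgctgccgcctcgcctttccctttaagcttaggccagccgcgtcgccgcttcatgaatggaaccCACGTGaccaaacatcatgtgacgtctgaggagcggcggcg
Mafk (chr5:139791286-139791535, plus strand): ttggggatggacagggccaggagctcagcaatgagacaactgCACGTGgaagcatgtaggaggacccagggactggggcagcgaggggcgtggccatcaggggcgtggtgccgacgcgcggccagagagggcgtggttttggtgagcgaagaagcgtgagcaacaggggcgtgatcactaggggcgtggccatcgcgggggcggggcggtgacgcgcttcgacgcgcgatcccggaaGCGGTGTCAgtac

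Signals are given as multiples of the 75th percentile of each array, so that arrays can be compared for 1 probe but probes cannot be compared with each other. Errors of log2 ratios are the scanner errors of the spots and cover nothing beyond the spot. For all member probes except those of *Bach2*, the scanner error was 10.0% to 10.1% of the signal on every array. It was thus nearly constant and is not a spread measured between spots. For probes printed 10 or more times, the median standard deviation of the log2 ratio between spots was smaller, 0.046 to 0.055. Statements about the spot error use the scanner error, not this spread. The probe coordinates are those of the array files (mm9, a build different from that of the promoters), and their place in exons or UTRs was not analysed here. Of the probes, 11 were well above background on all 4 arrays. The signal of *Bach2* probe 1 never exceeded background clearly, and it has no ratio.

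At 4 h, the transcripts of the small Mafs, Nrf1, Nrf2 and Bach1 were higher than in the control. Keap1 and Bach2 were near the control under the scaling used and below it under the 5 other scalings. Mafk and Mafg showed the largest ratios of the group. Of the 12 member probes, 7 were at least 2-fold higher, where 6.77% of all probes were. None was at least 2-fold lower, where 4.94% of all probes were. These shares are over all 39429 probes, detected or not. Of the 20392 probes measured on both arrays, 1760 were at least 2-fold higher and 1614 lower. The 7 were the probe of *Maff*, the 4 probes of *Mafg*, and those of *Mafk* and *Nfe2l1*. The median log2 ratio of the 11 member probes with a ratio was 1.30, with 10 higher and 1 lower. Over all 20392 probes measured at 4 h it was 0.17, and 60.2% were higher. The 4 *Mafg* probes read 1 gene, which weighs most in the member counts and median. By gene, the ratios were 1.76 (*Mafk*), 1.74 (*Mafg*, mean of its probes), 1.30 (*Maff*) and 1.06 (*Nfe2l1*). They were 0.91 for *Nfe2l2*, 0.85 for *Bach1*, 0.02 for *Keap1* and -0.04 for *Bach2* probe 2.

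**Figure D1:**
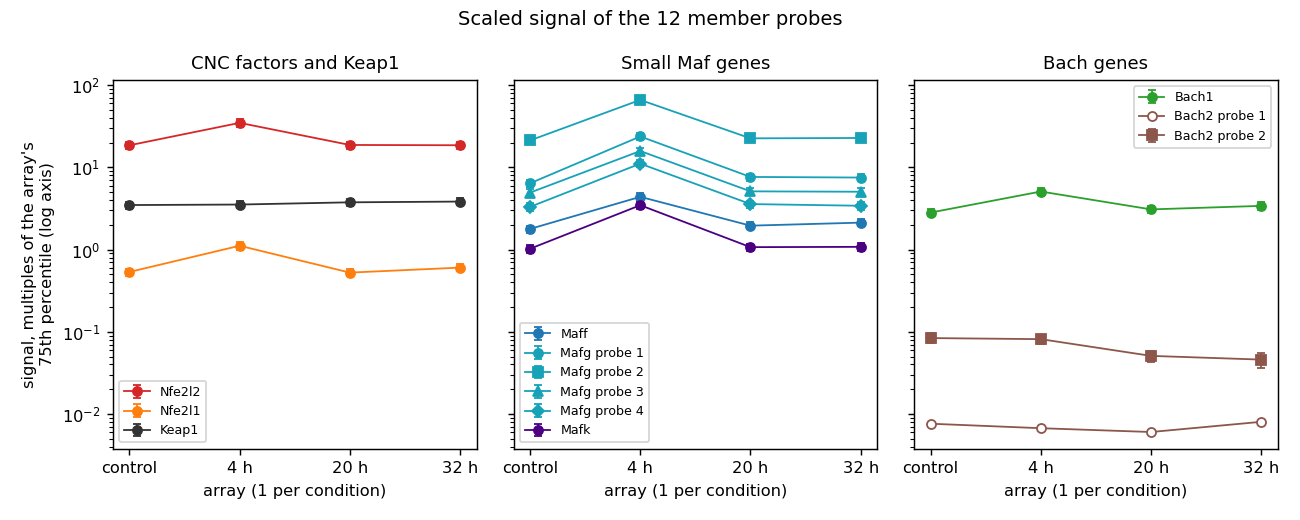
Signal of each member probe on the 4 arrays, as multiples of the 75th percentile of the array, on a log axis, with the CNC factors and Keap1, the small Mafs and the Bach genes in separate panels; bars are the scanner error of the single spot, and the open points of Bach2 probe 1, drawn without bars, are not well above background. Levels of different probes are not comparable. The 4 h array is the highest for Nfe2l2, Nfe2l1, Bach1 and the small Mafs, Keap1 stays between 3.48 and 3.84, and Bach2 probe 2 is lowest at 20 h and 32 h.

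*Nfe2l2* encodes Nrf2 (chr2:75513771-75513830, minus strand). Its signal was 18.6 in the control, 34.8 at 4 h, 18.7 at 20 h and 18.6 at 32 h. Only the 4 h array stood apart, and the other 3 lay within the spot error of each other. The 4 h log2 ratio was 0.91 ± 0.20 (1.88-fold), at percentile 89.4 of measured probes, and 0.74 above the median of all probes. Under the 5 other scalings this ratio was lower, from 0.50 to 0.78. At 20 h and 32 h the ratios were 0.013 and 0.0016, and the sign of both turned under the 75th percentile of detected probes and under normexp background correction.

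*Nfe2l1* encodes Nrf1, which is held in the endoplasmic reticulum and, once processed, drives proteasome genes (chr11:96680710-96680769, minus strand). Its signal was 0.534 in the control, 1.11 at 4 h, 0.525 at 20 h and 0.603 at 32 h. The 4 h array was again the only high one. The 4 h log2 ratio was 1.06 ± 0.21 (2.08-fold, percentile 92.5). This call was lost under 4 of the 5 other scalings, where the ratio was between 0.66 and 0.94, and it was 1.07 under quantile normalization. At 20 h the ratio was -0.03, which turned positive with median, spike-in or no scaling, and at 32 h it was 0.18.

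*Keap1* encodes the adaptor through which the Cul3 ubiquitin ligase recognizes Nrf2. Its 60-base probe is listed over 441 bases of genome (chr9:21035292-21035732, minus strand). Its signal was 3.48 in the control, 3.53 at 4 h, 3.76 at 20 h and 3.84 at 32 h. The 4 values lay within the spot error of their neighbours in order. The log2 ratios were 0.02 ± 0.20 at 4 h, 0.11 ± 0.20 at 20 h and 0.14 ± 0.20 at 32 h. At 4 h the ratio was 0.15 below the median of all probes, and it was negative, from -0.38 to -0.04, under each of the 5 other scalings.

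The small Mafs have no transactivation domain of their own, and the partner sets whether a pair activates or represses. *Maff* (chr15:79189442-79189501, plus strand) had signals of 1.78 in the control, 4.38 at 4 h, 1.95 at 20 h and 2.13 at 32 h. *Mafk* (chr5:140278221-140278280, plus strand) had 1.02, 3.46, 1.07 and 1.08 in the same order. Both were highest at 4 h, and their other 3 values lay within the spot error of their neighbours. The 4 h log2 ratio of *Maff* was 1.30 ± 0.20 (2.46-fold, percentile 95.7), and that of *Mafk* was 1.76 ± 0.20 (3.38-fold, percentile 98.2). *Maff* fell short of 2-fold with median and spike-in scaling, with a lowest ratio of 0.90, while *Mafk* passed it under all 5 other scalings, with a lowest ratio of 1.36.

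*Mafg* was measured by 4 probes on the minus strand that do not overlap, so they are separate readings of the same 4 RNA samples and not replicates. Probe 1 (chr11:120486465-120486524) had signals of 6.40 in the control, 23.8 at 4 h, 7.65 at 20 h and 7.52 at 32 h. Probe 2 (chr11:120489919-120489978) had 21.3, 66.2, 22.5 and 22.8. All 4 probes were highest at 4 h, by 3.11-fold to 3.71-fold over the control. Probe 3 (chr11:120490321-120490380) had 4.93, 15.8, 5.11 and 5.05. Probe 4 (chr11:120490566-120490625) had 3.31, 11.1, 3.58 and 3.41. The 4 h log2 ratios were 1.89, 1.64, 1.68 and 1.75 for probes 1 to 4, with a mean of 1.74 and a standard deviation between probes of 0.11 (n = 4 probes), which is smaller than the spot error of 0.20. The lowest *Mafg* ratio under any of the other scalings was 1.23. At 20 h the mean over the 4 probes was 0.13 (SD 0.091), and at 32 h it was 0.10 (SD 0.091), with probe 1 the highest at both times (0.26 and 0.23).

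*Bach1* encodes the heme-sensing repressor (chr16:87733532-87733591, plus strand). Its signal was 2.82 in the control, 5.08 at 4 h, 3.08 at 20 h and 3.40 at 32 h. It was highest at 4 h, below the 2-fold threshold, with a log2 ratio of 0.85 ± 0.20 (1.80-fold, percentile 87.9). Its ratio stayed positive, from 0.45 to 0.74, under the 5 other scalings. At 20 h the ratio was 0.13 ± 0.20 and at 32 h it was 0.27 ± 0.20.

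*Bach2*, the lymphoid-enriched relative of Bach1, was dim. Probe 1 (chr4:32588782-32588841, plus strand) had 0.00761 in the control, 0.00671 at 4 h, 0.00603 at 20 h and 0.00803 at 32 h, with errors as large as the signals. Probe 2 (chr4:32673009-32673068, plus strand) had 0.0838 in the control, 0.0813 at 4 h, 0.0509 at 20 h and 0.0459 at 32 h. The control and 4 h were high and 20 h and 32 h were low. The log2 ratio of probe 2 was -0.04 ± 0.28 at 4 h, -0.72 ± 0.30 at 20 h (1.65-fold lower) and -0.87 ± 0.36 at 32 h (1.83-fold lower). Under the 5 other scalings the 4 h ratio was from -0.45 to -0.17. Under normexp background correction the 4 h ratio was 0.11 and the 32 h ratio -0.45. On the 32 h array its log2 signal lay close to -4.73, the lowest scaled log2 signal of any probe well above background there.

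**Figure D2:**
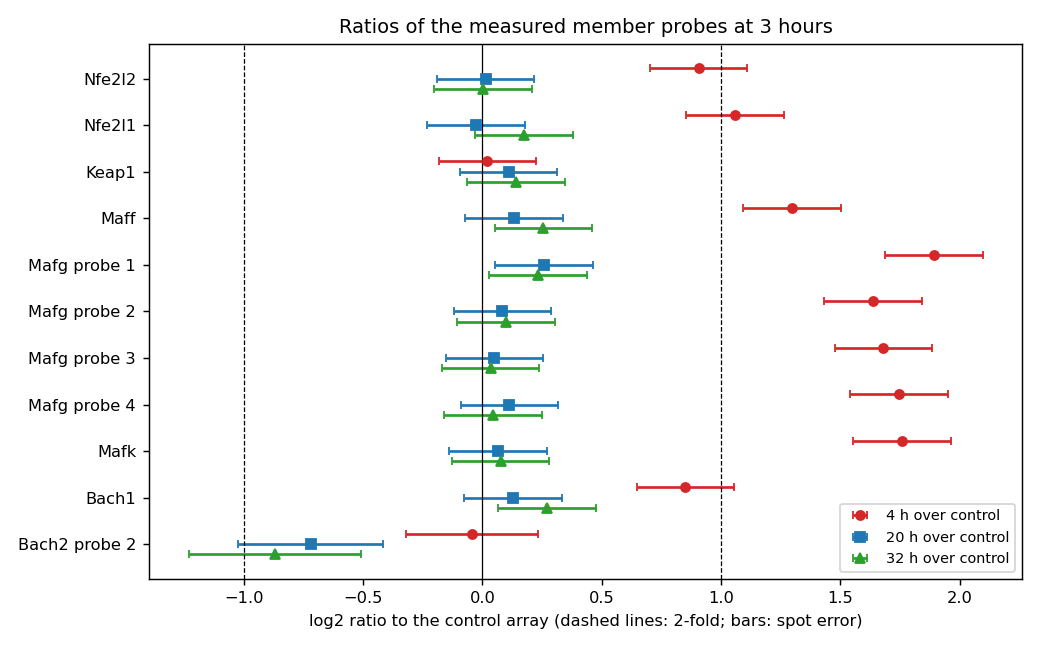
Log2 ratio over the single control array at 4 h, 20 h and 32 h for the members with a ratio; error bars are the propagated scanner error of the spots and dashed lines mark 2-fold. The small Mafs, Nfe2l1, Nfe2l2 and Bach1 lie at 0.85 to 1.89 at 4 h and at -0.03 to 0.27 later, whereas Keap1 stays near 0 and Bach2 probe 2 is at -0.72 and -0.87 at the later hours.

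The members fell in an order at 4 h that was resolved only in part. *Mafk* (1.76) and *Mafg* (1.74) differed by 0.020 ± 0.29 and could not be separated. The error taken for *Mafg* is the mean of the errors of its 4 probes, not the error of their mean. *Maff* was 0.44 ± 0.29 below *Mafg*. *Nfe2l1*, *Nfe2l2* and *Bach1* followed in steps of 0.24, 0.15 and 0.056, each within the spot error. The next step, from *Bach1* to *Keap1*, was 0.83 ± 0.29, and *Keap1* and *Bach2* differed by 0.064 ± 0.34. A difference of ratios between 2 probes does not depend on a scaling constant. On that measure *Mafk* moved by 1.74 ± 0.29 more than *Keap1* (3.34-fold), *Mafg* by 1.72 ± 0.29 (3.29-fold), *Maff* by 1.28, *Nfe2l1* by 1.04, *Nfe2l2* by 0.89 and *Bach1* by 0.83. *Mafg* exceeded *Nfe2l2* by 0.83 ± 0.29.

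**Figure D3:**
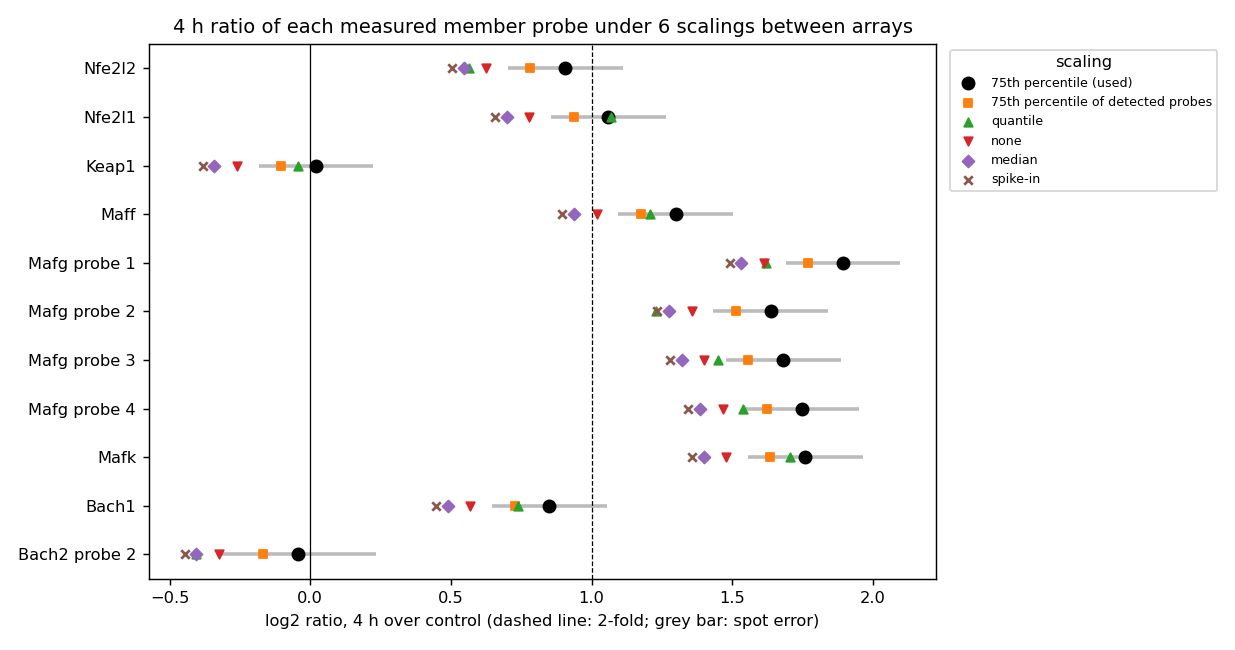
Log2 ratio at 4 h over the control of each member probe under 6 scalings between arrays; grey bars are the spot error of the 75th percentile scaling, and the dashed line is 2-fold. The Mafg and Mafk probes lie beyond 2-fold under every scaling drawn, Maff and Nfe2l1 fall on either side of it, and Keap1 is at or below 0.02.

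Under the scaling used, the transcripts that were high at 4 h lay near the control by 20 h and 32 h. That control was taken at 4 h only. At 20 h, 0 of the 12 member probes were at least 2-fold higher (0.763% of all probes) and 0 at least 2-fold lower (1.87%). At 32 h the counts were again 0 and 0 (1.15% higher and 1.43% lower among all probes). The member medians were 0.084 at 20 h and 0.099 at 32 h, beside -0.0034 and -0.0062 over all measured probes. *Mafk* was 3.24-fold lower at 20 h than at 4 h, *Mafg* 2.93-fold to 3.11-fold, *Maff* 2.24-fold, *Nfe2l1* 2.12-fold, *Nfe2l2* 1.86-fold and *Bach1* 1.65-fold. At 32 h, 19.7% of the 4 h log2 change of *Maff* and 31.8% of that of *Bach1* were left. Both remainders (0.26 and 0.27) were hardly larger than the spot error. These falls and shares depend on the scaling. With spike-in scaling *Bach1* had 0.45 at 4 h, 0.33 at 20 h and 0.41 at 32 h. Under the 5 other scalings *Mafk* was at 1.36 to 1.71 at 4 h and 0.050 to 0.40 at 20 h. With no scaling the 20 h ratio was 0.46 for *Bach1* and *Maff* and 0.59 for *Mafg* probe 1.

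The 20 h and 32 h arrays lie 12 h apart, and their comparison bears on the circadian question of the study. Between them, 0 member probes were at least 2-fold higher at 20 h (0.497% of all probes) and 0 at 32 h (1.06%). The largest differences were -0.20 ± 0.21 for *Nfe2l1* and 0.15 ± 0.38 for *Bach2* probe 2. None of the 11 differences was larger than its spot error. Single arrays at these hours cannot show whether a transcript follows a rhythm. A rhythm that passes its mean near both hours would give no difference.

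Genes that act with, on or below the members were grouped in lists, with 1 probe per gene, the brightest. Over all 15806 genes measured at 4 h the median log2 ratio was 0.17, and of all genes on the array 6.78% were at least 2-fold higher and 5.06% at least 2-fold lower. Of the 15 genes of the Keap1 ligase and of the turnover of Nrf2, Nrf1 and Bach1, 14 were measured on both arrays, and 10 were higher and 4 lower (median 0.39; 7 to 9 higher under the other scalings). *Sqstm1*, the autophagy adaptor that sequesters Keap1, had 2.14, and *Cul3*, the scaffold of the Keap1 ligase, had 0.96. *Btrc*, the F-box protein of the alternative Nrf2 degradation route, had -1.49 ± 0.23, and *Dcaf11* had -0.79. Only *Sqstm1* was at least 2-fold higher, and 2 genes were at least 2-fold lower, *Btrc* and *Palb2*. *Palb2*, named after its value was seen, was detected in the control but not at 4 h. Its bound was 3.07-fold lower (log2 -1.62 ± 0.54).

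All 5 genes of Nrf1 processing were measured, 4 higher (3 under the other scalings) and 1 lower (median 0.46), with none past 2-fold. *Ddi2*, the protease that cleaves Nrf1, had 0.86, *Ogt* 0.63 and *Hcfc1* 0.09, while *Ngly1*, the enzyme that removes its glycans, had -0.86 ± 0.38. Of the 5 coregulators, 3 were higher (2 or 3 under the other scalings) and 2 lower (median 0.19), from 0.51 for *Ep300* and 0.47 for *Chd6* to -0.0018 for *Smarca4* and -0.27 for *Rxra*. Of the 5 CNC and large Maf relatives reported here, only *Mafa* was measured (0.31, negative with median and spike-in scaling). *Nfe2*, *Nfe2l3* and *Nrl* were not well above background on either array. *Maf*, named after its value was seen, was detected in the control and not at 4 h. Its bound was 2.35-fold lower (log2 -1.23 ± 1.46), with an error larger than the change.

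The genes named as Nrf2 targets in textbooks were mostly higher at 4 h. Of the 28, 26 were measured, 24 higher (18 to 23 under the other scalings) and 2 lower (median 0.68), and 20 were higher by more than the spot error. With 2 genes detected at 4 h and not in the control, 12 of 28 were at least 2-fold higher and 0 lower. *Hmox1* had 3.29 ± 0.20 (9.80-fold), *Sqstm1* 2.14, *Pir* -0.07 and *G6pdx* -0.13. *Slc7a11*, the cystine carrier, named after its value was seen, was 1 of the 2 genes detected at 4 h and not in the control. The bound on its increase was 32.4-fold (log2 5.02 ± 1.45).

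The list of heme and iron genes repressed by Bach1 shares 6 of its 9 genes with the Nrf2 targets (6 of those 28). All 9 were measured, 8 higher (7 or 8 under the other scalings) and 1 lower (median 0.86), with 4 at least 2-fold higher. *Hmox1* (3.29) and *Gclm* (1.68), a subunit of the glutathione-synthesis enzyme, were the highest. *Nqo1*, a quinone reductase, had 0.14, and *Fech*, the last enzyme of heme synthesis, was lower by slightly more than 2-fold, to 0.498 of the control.

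All 31 proteasome subunits, the best known Nrf1 targets, were measured and all 31 were higher at 4 h, 28 by more than the spot error, but only 3 by at least 2-fold and 23 to 31 of them higher under the other scalings. The count of subunits past 2-fold was 0 with median, spike-in or no scaling, 1 with quantile normalization and 2 with the 75th percentile of detected probes. Their ratios ran from 0.16 for *Psmb5* and 0.18 for *Psmd13* to 1.14 for *Psmc2* and 1.26 for *Psmd11* (median 0.58). The direction depended on the scaling for some of them. With spike-in scaling 23 were higher and 8 lower, with median scaling 25 and 6, with quantile normalization 26 and 5, and with no scaling 27 and 4. The same scalings left 18, 18, 21 and 19 of the 26 measured Nrf2 targets higher. The list median was 0.41 above the median of all probes for the proteasome and 0.51 for the Nrf2 targets, under the scalings by 1 constant per array.

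**Figure D4:**
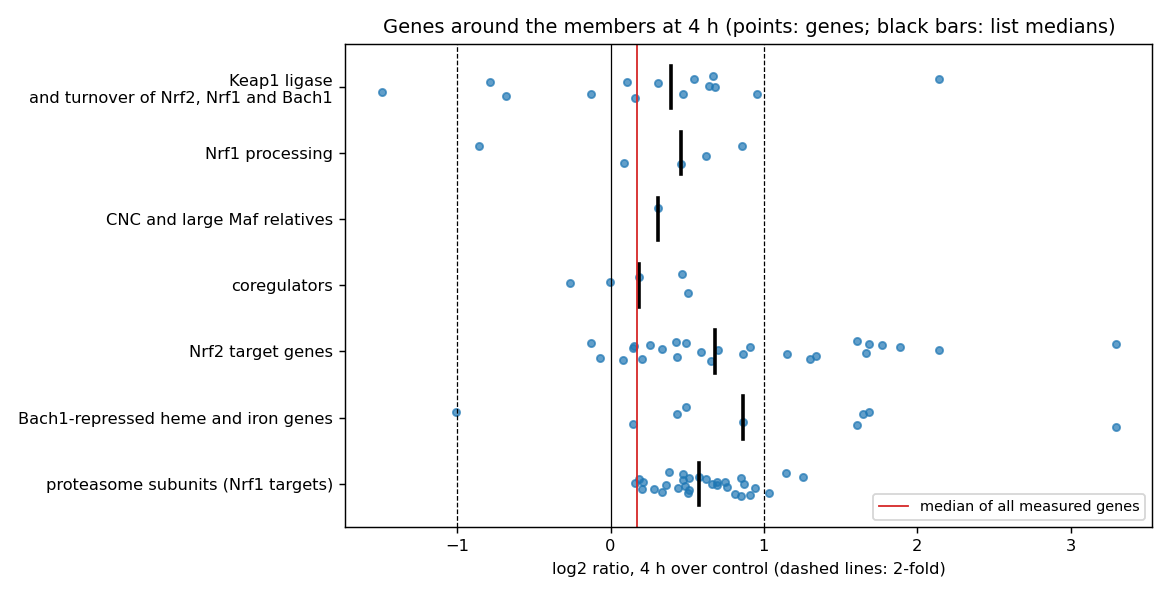
Log2 ratio at 4 h over the control of every measured gene of the 7 gene lists; each point is a gene, the black bars are list medians and the red line is the median of all measured genes. All 31 proteasome subunits lie above 0 in a range of 0.16 to 1.26 under this scaling (23 with spike-in scaling), and the Nrf2 targets reach from -0.13 to 3.29.

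At the later hours the medians of the lists of targets lay near 0. The Nrf2 targets had 0.020 at 20 h and -0.10 at 32 h, the Bach1-repressed genes -0.06 at both, and the proteasome subunits 0.03 and 0.04. *Hmox1* had -0.06 at 20 h and -0.14 at 32 h. Of the 28 Nrf2 targets, 1 was at least 2-fold below the control at 20 h and 2 at 32 h, where 2.002% and 1.551% of all genes were. Of the 9 Bach1-repressed genes, 1 was at 20 h and 2 at 32 h. These genes are named after their values were seen. They were *Abcc1* at 20 h (-1.31) and 32 h (-1.33) and *Slc40a1*, the iron exporter, at 20 h (-1.56) and 32 h (-1.81). *Nqo1*, which is in both lists, was the other, at 32 h (-1.04). Between 20 h and 32 h, 1 of the 28 Nrf2 targets was at least 2-fold higher at 20 h and 0 lower. That gene was *Nqo1* (1.07 ± 0.21), where 0.527% of all genes were at least 2-fold higher.

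The probes most like each member were those with the smallest distance over the 3 log2 ratios to the control, among 14904 probes detected on all 4 arrays with a gene symbol. For *Mafg* (probe 2) they were *Map3k10* (0.050), *Rlim* (0.068) and *Gclm* (0.068), and for *Mafk* they were *Mib1*, *Cpsf6* and *Cebpg* (0.059 to 0.083). For *Maff* they were *Eif1a*, *Nfkbib* and *Ufm1* (0.043 to 0.045). There were 109, 81 and 239 probes within 0.3 of *Mafg*, *Mafk* and *Maff*. Such a count falls as the ratios move away from those of most probes, so it describes no trait of the gene. *Nfe2l2* had 899 probes within that distance, led by *Plekhj1*, *Dlgap4* and *Ccdc97*, *Nfe2l1* had 461 (*Ift20*, *Nufip2*, *Pogk*), *Bach1* 645 (*Tsc22d1*, *Zfp654*, *Lamtor3*) and *Keap1* 2084 (*Zhx1*, *Ing1*, *Sac3d1*). *Bach2* had 70, led by *Actg1* (0.045), *Dlx2* and *Lox*. The 3 ratios share 1 control array, so these are likenesses over 4 arrays only. The distances given for single genes are smaller than the spot error of a ratio, so the order of the neighbours is not resolved.

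All 10 fibroblast markers were well above background on every array, with a summed signal of 1044 in the control, 1032 at 4 h, 905 at 20 h and 978 at 32 h. Of the 4 epithelial markers, *Epcam*, *Cdh1* and *Krt18* were detected on none of the arrays, and the summed signal was 0.569, 1.24, 0.721 and 0.687. Of the 3 immune markers reported here, *Ptprc* was not, and the sum was 0.978, 2.37, 1.07 and 1.11. The 3 endothelial markers summed to 3.22, 4.29, 4.21 and 4.12, with *Cdh5* not well above background at 32 h. The epithelial and immune sums were highest at 4 h, as were most members, and their part in the result was not tested. Most of each sum came from the highest single marker. For the epithelial markers it was 0.541 in the control and 1.22 at 4 h, and for the immune markers 0.572 and 1.68. Probes well above background were 53.4% in the control, 59.1% at 4 h, 55.2% at 20 h and 52.7% at 32 h, which was also highest at 4 h and likewise not tested.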

How the data were processed

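Gene expression was measured on 4 one-color Agilent arrays (Cy3) of NIH-3T3:Per2-Luc fibroblasts, 1 per condition, on 1 slide. The authors deposited background-subtracted, detrended intensities per spot from Agilent Feature Extraction 10.7.3.1, and a value table that proved to be those intensities over a constant of the array (44397 spots compared). The log2 of the deposited processed intensity was averaged per probe over unflagged spots and expressed relative to the 75th percentile of that array. Detection required 50% or more of a probe's spots to be flagged as well above background by the scanner software. Ratios were formed where both arrays detected the probe. Where only one did, a bound was taken against the lowest detected signal of the other array or the probe's own signal, whichever was higher. Errors are the propagated scanner errors of the spots. With 1 array per condition no test was run, and a probe was called past 2-fold.

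Depth is not defined for arrays, and their number (4) limits the precision. Outlier flags removed 125 to 161 spots from each array, and 0 spots were saturated. Probes printed 10 or more times had a median standard deviation of the log2 ratio between spots of 0.046 to 0.055.

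Every member probe was named. From each list, the 2 highest and the 2 lowest measured genes at 4 h were named, with *Hmox1*, and the 3 nearest probes of each member by Euclidean distance over the 3 ratios. Exceptions are stated beside them. Members and lists were chosen with earlier results of these data known, and results that need items withheld for evaluation were left out of 2 lists. Alternatives were median, quantile, spike-in (8 probes), detected-probe and no scaling, normexp background (limma 3.58.1, R 4.3.3, offset 50), no flag filter, other detection filters, the deposited table, other fold thresholds and, for lists, the mean over a gene's probes. Tables were made with Python 3.11.15, numpy 2.4.6 and pandas 2.3.3.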

Additional observations from a re-analysis of the deposited data

How the results depend on the processing

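The 7 member probes at least 2-fold higher at 4 h became 5 with median or spike-in scaling, 6 with no scaling, the 75th percentile of detected probes or normexp, 9 at a 1.5-fold threshold and 5 at 3-fold, and the 4 probes of *Mafg* and that of *Mafk* passed 2-fold under all of the scalings. At a 1.5-fold threshold, 1 member probe was lower at 20 h and 1 at 32 h (*Bach2* probe 2), in place of 0. Scalings shifted the median of all probes at 4 h from 0.17 to -0.19 (median), -0.015 (quantile), 0.047 (detected probes), -0.23 (spike-in) and -0.11 (none), and the list medians moved with it. With median scaling the medians were 0.50 for the Bach1-repressed genes, -0.049 for the single CNC and large Maf relative, 0.031 for the Keap1 ligase, 0.098 for Nrf1 processing, 0.32 for the Nrf2 targets, -0.17 for the coregulators and 0.22 for the proteasome. With spike-in scaling they were 0.46, -0.090, -0.010, 0.056, 0.28, -0.21 and 0.18, and with no scaling 0.58, 0.032, 0.11, 0.18, 0.40, -0.092 and 0.30, in the same order. Quantile normalization gave 0.63 for the Bach1-repressed genes, 0.15 for Nrf1 processing, -0.060 for the coregulators and 0.25 for the proteasome. The cause of these shifts was not tested. Among the other 139 recomputed counts and medians, counts (those at 4 h included) moved by no more than 1.5 times. Medians among them moved by less than the spot error. Of 440 recomputed ratios of single probes, 389 moved by less than their spot error. That share is no measure of robustness, because the other detection filters could not change ratios of probes detected on all 4 arrays. The 51 ratios that moved included those at 4 h of *Bach1*, *Keap1*, *Maff* and the 4 *Mafg* probes with median, spike-in and no scaling. No paired analysis was possible because each condition had 1 array. No replicate could be left out for the same reason, so nothing here measures the spread between cultures, and all hours rest on the same control. Signals near background, as for *Bach2*, depend on the background correction.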
